A study of Mus musculus with 4 samples.

Results

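The 10 genes described here encode the cyclins of G1 phase, the kinases they activate, and MYC with its relative N-MYC: *Ccnd1*, *Ccnd2*, *Ccnd3*, *Ccne1*, *Ccne2*, *Cdk2*, *Cdk4*, *Cdk6*, *Myc* and *Mycn*. They were chosen by name, and every probe set annotated with exactly 1 of these symbols was kept, which gave 10 of the 20656 genes and 26 of the 45037 probe sets measured. Expression was profiled on Affymetrix mouse arrays in Lin-ckit+Sca1+ (LSK) cells, the fetal liver fraction that holds hematopoietic stem cells and multipotent progenitors, sorted at E16.5 from C57BL/6x129 embryos. *Ddb1*-deficient LSK cells (2 arrays) were DDB1 flox/flox, VavCre+, and control LSK cells (2 arrays) were DDB1 flox/flox, VavCre-, so that both groups carried floxed alleles and the controls lacked Cre. Cre was under the Vav1 promoter, which is active in blood cells of every lineage, so deletion in these embryos was not limited to the sorted fraction. Neither the labels nor the methods say whether an LSK array held 1 embryo or a pool, and the p-values below measure only the spread between these samples.

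In G1, mitogens raise the D-type cyclins, which bind CDK4 or CDK6 and begin the phosphorylation of the retinoblastoma protein. E2F factors are then released and switch on *Ccne1* and *Ccne2*, and cyclin E with CDK2 carries the cell into S phase. MYC and N-MYC bind E boxes as partners of MAX and drive growth and ribosome production, and in hematopoietic stem cells the pair is needed for normal self-renewal and survival. DDB1 is the adaptor of the CUL4 ubiquitin ligase, which degrades the replication licensing factor CDT1 and the CDK inhibitor p21 among other proteins.

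Promoter windows are shown for the 4 members that held an E box or an E2F site in the 250 bases before an annotated start, since these are the letters that MYC and E2F read. Sequences are from RefSeq on GRCm38.p6, printed 5′ to 3′ on the strand of the gene, with capitals marking the E box CACGTG or an E2F site (TTTCGCGC, TTTCCCGC, TTTGGCGC or TTTGCCGC), both searched on either strand. *Cdk4* (chr10:127063285-127063534, plus strand), *Cdk6* (chr5:3343643-3343892, plus strand), *Cdk2* (chr10:128705052-128705301, minus strand) and *Mycn* (chr12:12941837-12942086, minus strand) read as follows.
Cdk4 promoter: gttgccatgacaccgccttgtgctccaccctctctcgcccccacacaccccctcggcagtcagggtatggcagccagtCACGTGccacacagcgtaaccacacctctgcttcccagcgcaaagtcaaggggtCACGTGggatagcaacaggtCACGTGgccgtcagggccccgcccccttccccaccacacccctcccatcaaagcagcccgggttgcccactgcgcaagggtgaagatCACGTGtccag
Cdk6 promoter: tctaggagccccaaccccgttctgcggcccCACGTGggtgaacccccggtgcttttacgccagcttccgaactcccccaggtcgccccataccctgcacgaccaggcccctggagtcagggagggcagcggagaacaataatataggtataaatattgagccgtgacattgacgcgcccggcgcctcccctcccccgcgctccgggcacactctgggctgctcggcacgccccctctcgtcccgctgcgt
Cdk2 promoter: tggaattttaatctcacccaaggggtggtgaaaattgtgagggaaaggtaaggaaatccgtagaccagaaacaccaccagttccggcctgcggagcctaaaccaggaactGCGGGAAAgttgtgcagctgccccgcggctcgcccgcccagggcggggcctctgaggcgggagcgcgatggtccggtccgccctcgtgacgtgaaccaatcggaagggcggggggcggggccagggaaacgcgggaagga
Mycn promoter: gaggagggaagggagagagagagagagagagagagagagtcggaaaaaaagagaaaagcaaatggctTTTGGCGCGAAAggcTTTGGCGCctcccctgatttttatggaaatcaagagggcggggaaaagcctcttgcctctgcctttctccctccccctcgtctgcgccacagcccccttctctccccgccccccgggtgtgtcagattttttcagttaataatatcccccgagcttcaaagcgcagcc
The *Cdk4* window held 4 E boxes, which began 172, 118, 98 and 11 bases before the start, and the *Cdk6* window held 1, at 220 bases. The *Cdk6* window lies inside the annotated gene (3341004 to 3531008 on chromosome 5) and precedes an internal start. The *Cdk2* window held 1 E2F site, GCGGGAAA, at 140 bases, and the *Mycn* window held 3, at 183, 179 and 168 bases, of which the first pair, TTTGGCGC and GCGCGAAA, overlap. Windows were given for 6 members (7 windows), and those of *Ccnd3* and *Ccne1* held neither motif. Of all 32851 windows of this length, 6.02% held an E box and 1.86% an E2F site. A match is a run of letters and not evidence of binding, and no binding was measured in these samples.

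Values are log2 intensities after robust multi-array averaging (RMA), and the signal of the median probe set was 2.08. A probe set with a mean at or below that in both groups is called dim here. The array medians lay between 2.026 and 2.085, and the 2 *Ddb1*-deficient arrays correlated at 0.940 and the 2 control arrays at 0.970 across probe sets. *Ddb1* itself read 4.58 and 4.33 in *Ddb1*-deficient cells, against 6.06 and 6.26 in control cells. Its log2 difference was −1.70 (limma adjusted p = 0.209), although the position of the *Ddb1* probes relative to the deleted exons is not given. Of the markers of the sort, *Kit* read 6.41 and 5.63 in *Ddb1*-deficient cells, against 6.18 and 6.40 in control cells, and *Ly6a* (Sca1) read 7.01 and 6.84, against 7.30 and 6.32, so the 2 groups overlapped for both. Markers of other cells separated the groups, in lists chosen with earlier results of these data known. At the brightest probe set per gene, 22.5% of all genes were higher and 18.5% lower without overlap, beside which the marker counts stand. All 15 macrophage markers were higher in both *Ddb1*-deficient arrays, with summed linear signals of 19772 and 23727, against 3065 and 4729 in control cells, and none of the 15 was dim. All 9 granulocyte and monocyte progenitor markers were lower (866 and 492, against 11766 and 15365 in control cells). Of 10 B lineage markers 5 were lower and 5 overlapped (5030 and 290, against 7034 and 10004), which also set the 2 *Ddb1*-deficient arrays apart from each other. Of 9 erythroid markers 7 were higher (2214 and 2658, against 414 and 1000), as were 8 of 12 endothelial (246 and 227, against 66 and 76) and 5 of 8 hepatoblast markers, with 1 hepatoblast marker lower (684 and 943, against 195 and 218). The part of these cells in the results below was not tested, and in a sorted bulk sample fewer cells of a type and less RNA per cell cannot be told apart.

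None of the 26 probe sets passed the threshold between *Ddb1*-deficient and control cells (limma, Benjamini-Hochberg adjusted p between 0.209 and 0.964), and 0% of all 45037 probe sets did. At an unadjusted limma p under 0.05, 4 member probe sets were higher and 5 lower in *Ddb1*-deficient cells, where 4.2% of all probe sets were higher and 5.48% lower. By the methods' t-test 5 of the 26 had an unadjusted p under 0.05, as had 7.67% of all probe sets. The arrays of the 2 groups did not overlap for 16 of the 26 probe sets, 6 of them higher and 10 lower in *Ddb1*-deficient cells, against a background of 21.5% higher and 18% lower over all probe sets. The 3 dim member probe sets overlapped, and among probe sets above the median signal in at least 1 group the background was 19.8% higher and 25.4% lower. The median log2 difference of the 26 was −0.34, against 0.03 over all probe sets.

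*Mycn*, *Ccnd1* and *Ccnd2* were higher in both *Ddb1*-deficient arrays at their brightest probe set, and *Cdk6*, *Cdk2*, *Ccnd3*, *Cdk4* and *Ccne2* were lower. *Ccne1* and *Myc* overlapped at theirs. Taking 1 probe set per gene, 22.5% of all genes were higher and 18.5% lower without overlap.

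**Figure D1:**
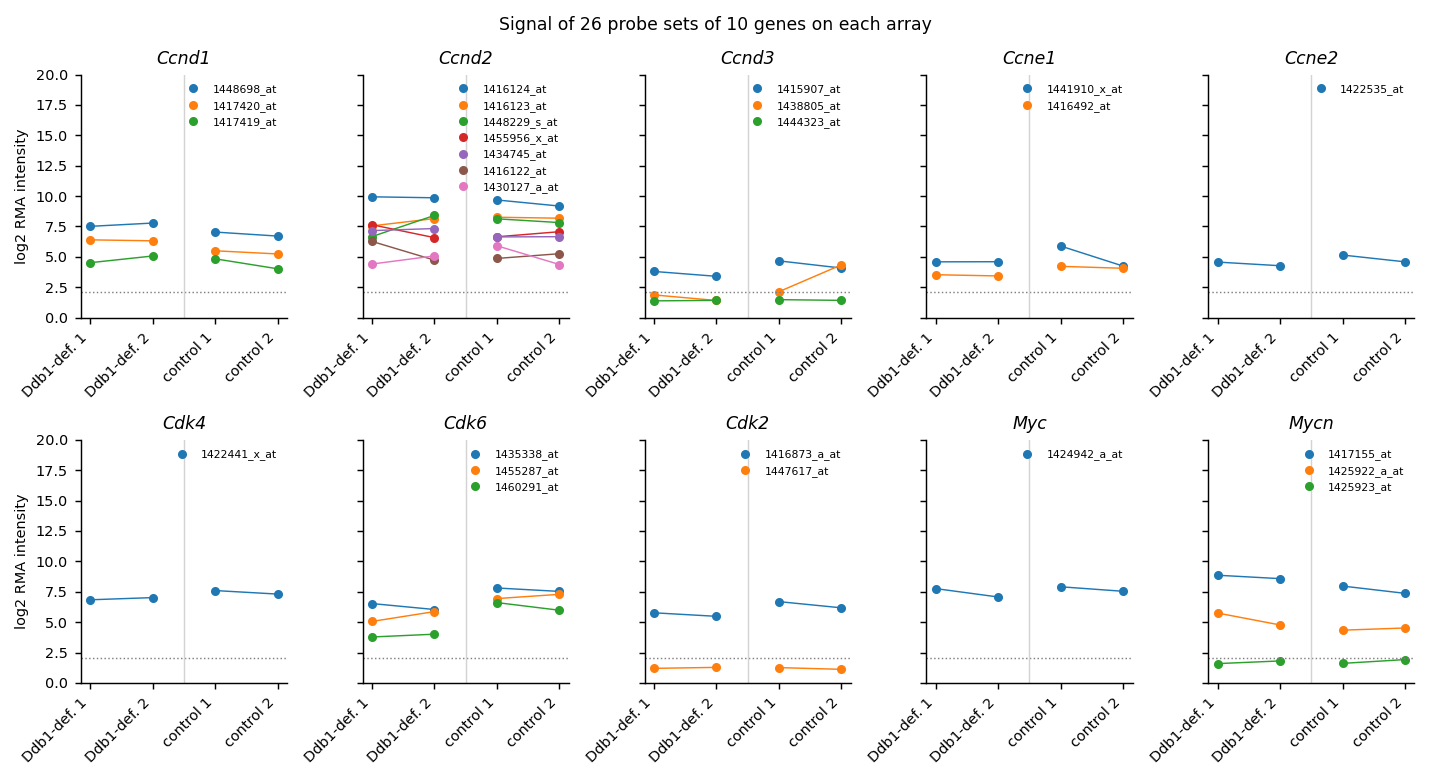
Log2 RMA intensity (y axis) of each of the 26 probe sets on the 2 Ddb1-deficient (Ddb1-def.) and the 2 control arrays, 1 panel per gene, with lines joining the arrays of a group and a dotted line at the median probe set (2.08). The 3 Cdk6 probe sets lie lower on both Ddb1-deficient arrays, while Ccnd2 probe sets cross.

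*Ccnd1*, which encodes cyclin D1, was higher in *Ddb1*-deficient cells at 2 of its 3 probe sets. Probe set 1448698_at read 7.51 and 7.78 in *Ddb1*-deficient cells, against 7.04 and 6.71 in control cells, a log2 difference of 0.77 ± 0.22 (SE, 2 arrays per group, limma adjusted p = 0.451). Probe set 1417420_at read 6.40 and 6.32, against 5.50 and 5.24 in control cells, 1.98-fold higher (log2 0.98 ± 0.19, 95% interval 0.46 to 1.51, adjusted p = 0.308). In both, each *Ddb1*-deficient array stood above each control array. The dimmest, 1417419_at, read 4.52 and 5.07, against 4.84 and 4.02 in control cells, and overlapped (log2 0.36 ± 0.39, interval −0.73 to 1.45). The annotation lists the same interval of the gene for all 3.

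*Ccnd2*, which encodes cyclin D2, the D cyclin that cytokine signals raise through STAT5 in several blood cell types, was measured by 7 probe sets that did not go the same way. The brightest, 1416124_at, read 9.94 and 9.86 in *Ddb1*-deficient cells, against 9.68 and 9.18 in control cells (log2 difference 0.47 ± 0.24, limma adjusted p = 0.656). Probe set 1434745_at, aligned at another interval, read 7.16 and 7.33, against 6.64 and 6.66 in control cells, with gaps of 0.17 between the *Ddb1*-deficient and 0.02 between the control arrays (log2 0.59 ± 0.17, interval 0.11 to 1.08, adjusted p = 0.453). These 2 were higher without overlap, although at 1416124_at the control arrays lay 0.50 apart, more than the groups differed. Probe set 1416123_at read 7.55 and 8.15, against 8.26 and 8.18 in control cells, and was lower without overlap (log2 −0.37 ± 0.27, adjusted p = 0.742), although the same interval is listed for it as for 1416124_at. At 1416123_at the *Ddb1*-deficient arrays lay 0.60 apart, more than the groups differed, and the groups were separated only by 8.15 below 8.18. The other 4 overlapped. Among them 1448229_s_at read 6.67 and 8.41 in *Ddb1*-deficient cells, against 8.13 and 7.82 in control cells, and 1416122_at read 6.27 and 4.73, against 4.87 and 5.26. The 2 *Ddb1*-deficient arrays thus differed from each other by 1.74 and 1.55 at these probe sets, in opposite directions and by more than the groups differed (0.43 in both). Probe set 1455956_x_at (7.64 and 6.58, against 6.65 and 7.07 in control cells) was also wider apart within the *Ddb1*-deficient group (1.06) than between groups (log2 difference 0.25). At 1430127_a_at (4.41 and 5.08, against 5.91 and 4.37 in control cells) the control arrays were the wider pair, 1.55 apart, with both *Ddb1*-deficient values between them (log2 −0.40).

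*Ccnd3*, which encodes cyclin D3, the D cyclin known for its part in early lymphoid and erythroid expansion, was lower in *Ddb1*-deficient cells without overlap at 1 probe set with signal in both groups. Probe set 1415907_at read 3.80 and 3.40, against 4.67 and 4.08 in control cells (log2 difference −0.77 ± 0.30, interval −1.62 to 0.08, limma adjusted p = 0.553), and its annotation lists 2 alignments. Probe set 1438805_at read 1.87 and 1.41 in *Ddb1*-deficient cells, against 2.13 and 4.34 in control cells, so that its signal lay above the median probe set in control cells only. Its log2 difference of −1.59 ± 0.82 came mostly from 1 control array and was −0.48 without it. The third, 1444323_at, was dim (1.38 and 1.42, against 1.48 and 1.42 in control cells).

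*Cdk6*, a catalytic partner of the D cyclins that is prominent in blood progenitors, held the largest difference of the 26 probe sets, and all 3 of its probe sets were lower in *Ddb1*-deficient cells without overlap. Probe set 1460291_at read 3.78 and 4.01 in *Ddb1*-deficient cells, against 6.61 and 5.98 in control cells, a 5.28-fold lower signal (log2 difference −2.40 ± 0.29, interval −3.22 to −1.58, limma adjusted p = 0.209). Probe set 1455287_at read 5.06 and 5.87, against 6.94 and 7.29 in control cells (3.13-fold lower, log2 −1.65 ± 0.35, adjusted p = 0.348). Probe set 1435338_at read 6.53 and 6.04, against 7.81 and 7.53 in control cells (2.6-fold lower, log2 −1.38 ± 0.26, adjusted p = 0.305). The gaps between arrays of a group were 0.23 to 0.80 at these probe sets, below the difference between groups at each. The alignment of 1460291_at spans 178.4 kb and those of the other two share one interval beyond it, from 183.9 to 187.2 kb, so the probe sets cover 2 separate stretches of the locus. The 3 genes closest to the profile of 1460291_at, by Euclidean distance of centred log2 values over the 4 arrays among 11769 genes, were *Plac8* (0.10), *Irf8* (0.20) and *Megf9* (0.26). *Irf8*, which encodes a factor of monocyte and dendritic cell progenitors, read 3.84 and 3.92 in *Ddb1*-deficient cells, against 6.43 and 6.02 in control cells. The 9 granulocyte and monocyte progenitor markers were lower on the same arrays (median log2 difference −4.70). Of 10 B lineage markers 5 were lower and 5 overlapped (median −2.44). The part of either set of cells in the *Cdk6* values was not tested.

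*Cdk4*, whose product shares the D cyclins with CDK6, was also lower in *Ddb1*-deficient cells. Its probe set 1422441_x_at read 6.84 and 7.02 in *Ddb1*-deficient cells, against 7.60 and 7.31 in control cells, without overlap (log2 difference −0.53 ± 0.20, interval −1.10 to 0.05, limma adjusted p = 0.551). The suffix _x_at marks probes that may bind other transcripts. A pair of further probe sets, annotated to *Cdk4* and a second locus together and therefore outside the 26, read 6.42 and 6.31, against 6.83 and 6.59 in control cells, and 4.74 and 4.77, against 5.71 and 5.04, with log2 differences of −0.34 and −0.62.

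**Figure D2:**
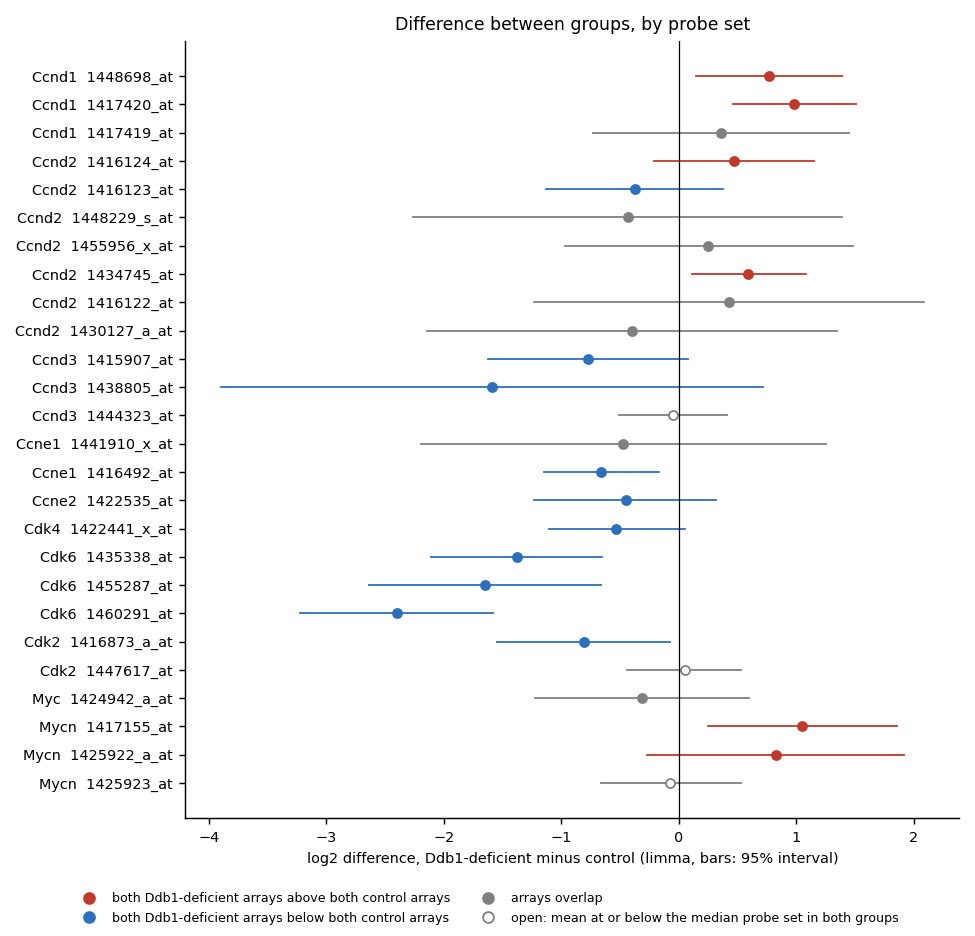
Log2 difference, Ddb1-deficient minus control (x axis), with its 95% interval from limma for each of the 26 probe sets (rows). The Cdk6 intervals lie below 0 at all 3 probe sets (−2.40, −1.65 and −1.38), as do those of Ccne1 1416492_at and Cdk2 1416873_a_at, those of 2 Ccnd1 probe sets, Ccnd2 1434745_at and Mycn 1417155_at lie above 0, and open points are dim probe sets.

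The E cyclins bind CDK2 late in G1. *Ccne1* probe set 1416492_at read 3.53 and 3.43 in *Ddb1*-deficient cells, against 4.22 and 4.06 in control cells, and was lower without overlap (log2 difference −0.66 ± 0.18, interval −1.15 to −0.17, limma adjusted p = 0.417). Its other probe set, 1441910_x_at, read 4.59 and 4.60, against 5.89 and 4.24 in control cells, so that the control arrays lay on both sides (log2 −0.47 ± 0.61). *Ccne2* probe set 1422535_at read 4.57 and 4.27 in *Ddb1*-deficient cells, against 5.15 and 4.59 in control cells. Its groups were separated by only the smallest margin, 4.57 below 4.59 (log2 −0.45 ± 0.28, adjusted p = 0.699). *Cdk2*, the kinase of both, read 5.77 and 5.48 at 1416873_a_at, against 6.69 and 6.18 in control cells, without overlap (1.75-fold lower, log2 −0.81 ± 0.26, interval −1.55 to −0.07, adjusted p = 0.491). The remaining *Cdk2* probe set, 1447617_at, was dim, at 1.20 and 1.28, against 1.26 and 1.12 in control cells.

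*Myc* and *Mycn* encode factors of 1 family that can stand in for each other in part. *Myc* read 7.76 and 7.07 at its 1 probe set, 1424942_a_at, in *Ddb1*-deficient cells, against 7.91 and 7.54 in control cells. The groups overlapped, and the log2 difference of −0.31 ± 0.32 had an interval from −1.22 to 0.60 (limma adjusted p = 0.822), so that a difference of up to 1.22 downwards lies within it. *Mycn* was higher in *Ddb1*-deficient cells at the 2 probe sets with signal. Probe set 1417155_at read 8.86 and 8.58, against 7.97 and 7.37 in control cells, without overlap (2.07-fold higher, log2 1.05 ± 0.29, interval 0.25 to 1.86, adjusted p = 0.427). Probe set 1425922_a_at read 5.75 and 4.77, against 4.34 and 4.52 in control cells, also without overlap, although 1 *Ddb1*-deficient array stood only just above the controls (log2 0.83 ± 0.39, adjusted p = 0.625). The third, 1425923_at, was dim (1.59 and 1.81, against 1.61 and 1.92 in control cells). The 15 macrophage markers were higher on the same arrays (median log2 difference 2.75), as *Mycn* and *Ccnd1* were. Most erythroid, endothelial and hepatoblast markers were higher too (medians 1.04, 1.39 and 0.77), with 1 hepatoblast marker lower. The part of any of these cells in the *Mycn* and *Ccnd1* values was not tested.

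Leaving out 1 array at a time kept the sign of all 3 *Cdk6* probe sets (−2.72 to −2.08 for 1460291_at, −2.05 to −1.25 for 1455287_at and −1.63 to −1.13 for 1435338_at). It also kept those of *Mycn* 1417155_at (0.75 to 1.35), *Ccnd1* 1417420_at (0.86 to 1.11), *Cdk2* 1416873_a_at (−1.06 to −0.56) and *Ccne1* 1416492_at (−0.74 to −0.58). The arrays of the 2 groups did not overlap at any of these probe sets. Leaving out 1 array could therefore not turn their sign, and only the ranges carry information. The sign turned for *Myc* (−0.65 to 0.04), whose arrays overlapped.

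**Figure D3:**
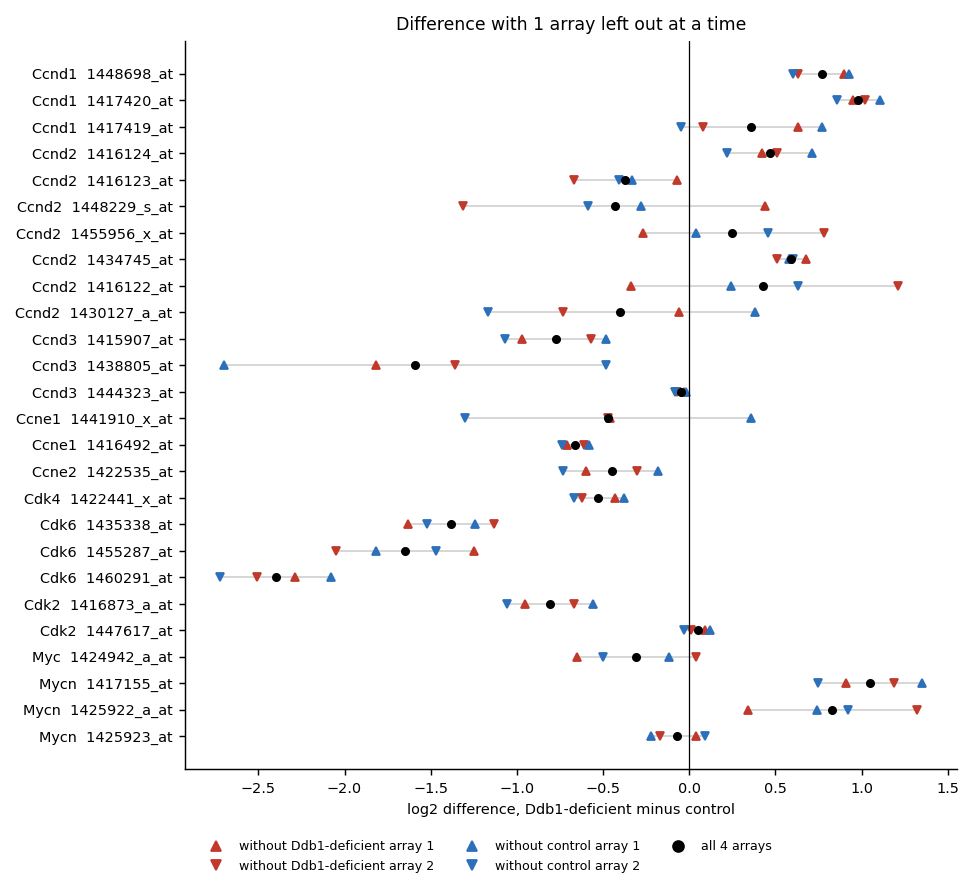
Log2 difference, Ddb1-deficient minus control (x axis), with all 4 arrays (black) and with each array left out (triangles), for the 26 probe sets (rows). The Cdk6 points stay below −1 throughout, while 4 Ccnd2 probe sets, Myc and 4 others have points on both sides of 0.

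The genes that regulate the members or answer to them were described from 8 lists of 122 genes, members left out, of which 119 were measured and none passed the threshold in limma. At the brightest probe set per gene, 6 were higher and 20 lower at an unadjusted limma p under 0.05, where 5.06% of all genes were higher and 6.11% lower. Without overlap between the groups, 14 were higher and 46 lower in *Ddb1*-deficient cells, beside 22.5% and 18.5% of all genes, which are also the shares beside which the counts of each list below stand. The median log2 difference was −0.21, against 0.03 over all genes. Only 7 of the 119 were dim. Among all probe sets above the median signal in at least 1 group, 19.8% were higher and 25.4% lower without overlap, with a median of −0.06. The lean to lower values is therefore smaller beside probe sets with signal than beside all genes. Among 6 measured CDK inhibitors, 2 were higher and 1 lower. *Cdkn1c* (p57), which holds stem cells out of cycle, read 4.13 and 3.86 in *Ddb1*-deficient cells, against 1.81 and 2.28 in control cells (limma adjusted p = 0.223). The control mean, 2.04, lay below the median probe set, and with no value taken below that level the signal was at least 3.52-fold higher. *Cdkn1a* (p21), which p53 induces, read 4.73 and 5.56, against 4.54 and 4.35 in control cells, with both arrays above the controls but 1 of them close to these (log2 0.70). *Cdkn1b* (p27), the inhibitor of cyclin E with CDK2, read 7.22 and 7.45, against 8.09 and 7.96 in control cells, and was lower (log2 −0.69, adjusted p = 0.425). *Cdkn2c* (p18) overlapped (log2 −0.45), and *Cdkn2a* and *Cdkn2b* were dim, at −0.29 and 0.09.

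Of the 13 pocket protein and E2F genes, the switch on which the D cyclins act, 1 was higher and 4 were lower (median −0.51). *Rbl1*, the gene of p107, differed by −1.52 and the repressor *E2f8* by −1.23, while the repressor *E2f6* differed by 0.66. Of 22 E2F target genes other than the E cyclins, 1 was higher and 9 were lower (median −0.43). These included the replication factor *Mcm10* (−1.22) and the methylation reader *Uhrf1* (−0.85), while thymidine kinase, *Tk1*, was higher (0.46). Of 16 genes that activate the G1 kinases or turn over their cyclins and MYC, 1 was higher and 8 were lower (median −0.22). The CDK-activating kinase *Cdk7* differed by −1.15 and *Cks2*, a small subunit that binds CDKs, by −1.29, against 0.68 for the F-box gene *Fbxo4*. Of 11 later cyclins and kinases, 1 was higher and 7 were lower (median −0.53). *Cdk1*, the mitotic kinase, read 4.98 and 2.68 in *Ddb1*-deficient cells, against 5.88 and 6.69 in control cells (log2 −2.46). *Ccng2* differed by −2.26 and *Ccng1*, a p53 target, by 0.67. Of 8 general proliferation markers 7 were lower and 1 overlapped (median −0.91), with *Bub1* at −2.20 and *Top2a* at −1.73.

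Of 12 measured partners and antagonists of MYC, 2 were higher and 3 were lower (median −0.03), with the coactivator *Trrap* at 0.80, *Mxd4* at 0.28 (2.22 and 2.41 in *Ddb1*-deficient cells, against 2.03 and 2.04 in control cells, the last 2 below the median probe set), *Mycbp* at −1.39 and the repressor *Mga* at −1.20. Of 25 measured MYC target genes, 3 were higher and 9 were lower (median −0.06). The chaperonin subunit *Cct3* differed by 1.33 and prohibitin, *Phb*, by 0.76, against −0.88 for the RNA polymerase I subunit *Polr1b* and −0.75 for *Ppat*, an enzyme of purine synthesis. Of 14 receptors and signal genes upstream of the D cyclins, 3 were higher and 5 were lower (median −0.14). *Flt3*, a cytokine receptor of multipotent and lymphoid progenitors, read 2.00 and 1.49 in *Ddb1*-deficient cells, against 6.01 and 5.85 in control cells (limma adjusted p = 0.188, equal to the lowest of all probe sets). Since both *Ddb1*-deficient values lay below the median probe set, the signal was at least 14.4-fold lower with no value taken below that level. *Foxo1* differed by −2.01, the stem cell factor *Gata2* by 0.51, and *Csf1r*, the macrophage receptor that is also among the macrophage markers, by 2.43. No difference between lists was tested.

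**Figure D4:**
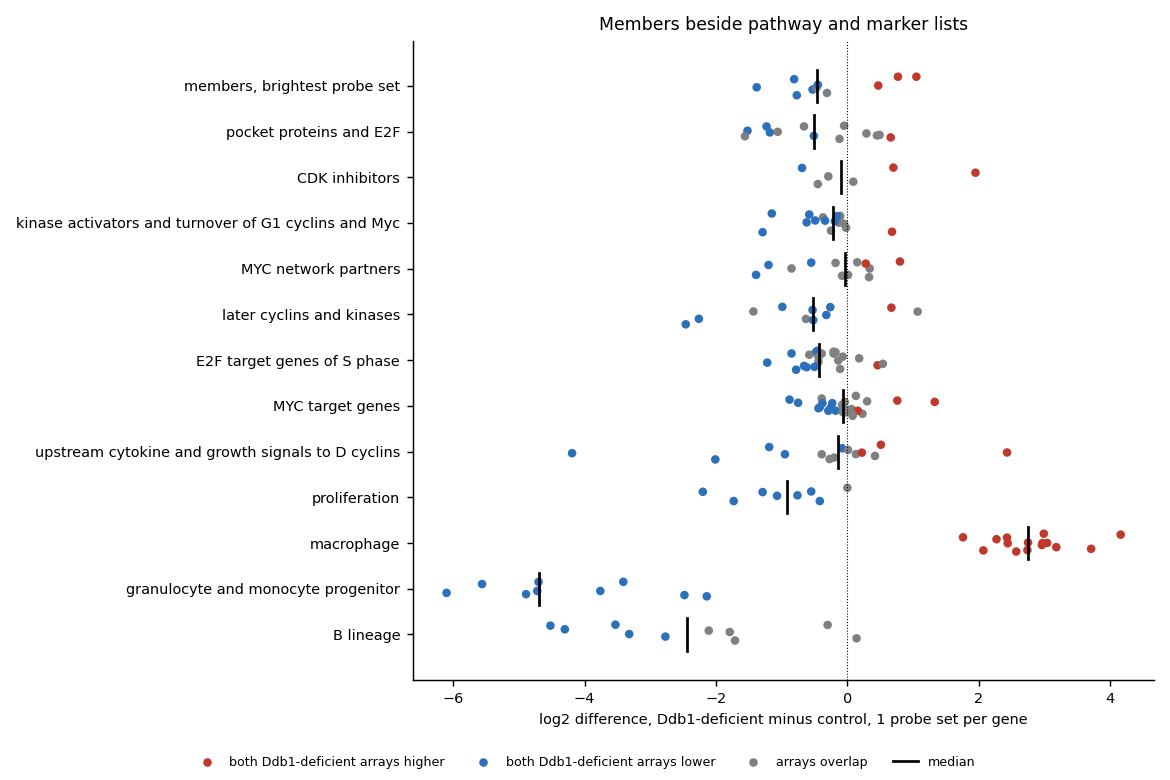
Log2 difference, Ddb1-deficient minus control (x axis), of the brightest probe set per gene for the 10 members and for pathway and marker lists without members (rows), with red and blue for genes whose arrays did not overlap and black bars at the median. The pathway medians lie between −0.53 and −0.03, against 2.75 for macrophage and −4.70 for granulocyte and monocyte progenitor markers.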

How the data were processed

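RNA (20 ng per sample) was amplified in 2 rounds, labelled and hybridised to Affymetrix mouse arrays, 1 per sample. The authors normalised the arrays together by RMA in GeneSpring and deposited linear intensity values, and they also deposited a log2 table of the same arrays relative to the control mean of each probe set, which equals log2 of the linear values to within 2e-06 once these are centred on that mean. RMA equalises the distributions of the arrays, so a shift shared by all transcripts is not visible. A second deposited table, with the authors' t-test p-values and fold changes, was not used, nor were its 8 columns of sample values.

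Here, log2 of the linear values was taken for 45037 probe sets (64 Affymetrix controls were left out) and fitted with lmFit and eBayes of limma 3.58.1 (R 4.3.3), *Ddb1*-deficient minus control, two-sided, with Benjamini-Hochberg adjustment over all probe sets and a threshold of 0.05. On simulated data the fit was required only to return the size of the added differences. How often such differences would pass the threshold is not given here. The number of arrays, 2 per group, limits the precision, and an exact permutation test could not give a p below 0.333. Every probe set of the members was named. From each list, up to 2 genes in each direction with the largest differences among those without overlap and above the median signal were named, with every CDK inhibitor and the 3 profiles nearest to the member probe set with the largest difference. Lists used 1 probe set per gene, the brightest over the 4 arrays. Alternatives covered the test, threshold, scaling, an offset of 16, dim and cross-hybridising probe sets, the choice of probe set, a replicate block and leaving out each array. The members and lists were chosen with earlier results of these data known. Positions are those of RefSeq on GRCm38.p6, since the build of the alignments in the table is not given in the sources used here.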

Additional observations from a re-analysis of the deposited data

How the results depend on the processing

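The count of probe sets past the threshold was 0 by limma. It became 3453 by the methods' t-test without adjustment and 2 after Benjamini-Hochberg, 4360 at an unadjusted limma p, and 4210 at an absolute log2 difference of at least 1. The same changes gave 5, 0, 9 and 5 of the 26 member probe sets. The median difference of the members (−0.34) was −0.19 without the _x_at and _s_at probe sets and −0.45 to −0.07 with 1 array left out. Of 234 values for single member probe sets under 9 alternatives, 223 kept their direction and 11 reversed. Many of the 234 could not have reversed, so the 223 are no measure of stability. The replicate block and the deposited log2 values leave a difference unchanged. Leaving out 1 array cannot turn the sign where the arrays of the groups do not overlap. The reversals lay in 9 probe sets. No probe set passed under these alternatives, so the threshold says nothing of stability. With 1 array left out these spanned −0.05 to 0.77 for *Ccnd1* 1417419_at, −1.31 to 0.44 for *Ccnd2* 1448229_s_at, −0.27 to 0.78 for 1455956_x_at, −0.34 to 1.21 for 1416122_at and −1.17 to 0.38 for 1430127_a_at, −1.30 to 0.36 for *Ccne1* 1441910_x_at, −0.03 to 0.12 for *Cdk2* 1447617_at (−0.01 after a second quantile normalization), −0.65 to 0.04 for *Myc* and −0.22 to 0.09 for *Mycn* 1425923_at. The cause was not tested.

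With the replicate number as a block (replicate block), 0 probe sets passed and the median of the members was −0.34. In this balanced design the block cannot move a fitted difference, so the median does not bear on stability. The block does change the p-values (limma adjusted p for *Cdk6* 1460291_at 0.209 without it and 0.477 with it). The count was 0 both ways. The labels do not say what the numbers share, and with 2 pairs the deviations of same-numbered arrays correlated at 0.002. *Xist* (1436936_s_at) read 2.15 and 9.96 on the *Ddb1*-deficient arrays and 1.93 and 10.09 on the control arrays. The Y-linked gene *Kdm5d* (1452562_at) read 6.86 and 1.67, against 7.40 and 1.43 on the control arrays. The number thus coincides with *Xist* and Y-linked signal. The labels do not give the sex of the embryos, which could only be inferred from such signal. With 2 arrays per group the intervals are wide, and a difference that missed the threshold is not shown to be absent.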
